A study of Mus musculus with 6 samples.

Results

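Transcripts of 5 genes of the cytotoxic granule, Gzma, Gzmb, Prf1, Nkg7 and Srgn, were followed in 6 RNA-seq libraries of lung group 2 innate lymphoid cells (ILC2s). The genes are the rows of the deposited count table that carry these symbols, 5 of 21825 genes, and all 5 passed the filter on low counts that left 15719 genes for testing. They were chosen from the granule genes with results of the TNFa comparison on these libraries already known. Their differences between the groups are therefore given as a description, and nothing is read from the calls that the fits made on them. With TNFa, Gzma averaged 3.77-fold less and Gzmb 1.75-fold less than with PBS, whereas Srgn and Prf1 overlapped between the groups. There were 3 libraries labelled TNFa, numbered 4, 5 and 6, and 3 labelled PBS, numbered 1, 2 and 3. ILC2s are tissue lymphocytes without rearranged antigen receptors that make type 2 cytokines. All 6 libraries came from sorted lung ILC2s of BALB/c mice, 6 weeks old, after 3 intraperitoneal injections of 1 µg of IL-33, an alarmin that expands and activates these cells. The cells were cultured for 48 h with IL-2 and IL-7 at 10 ng/mL each, with TNFa at 40 ng/mL in 1 group and its PBS vehicle in the other. Every library thus describes ILC2s activated in vivo by IL-33 and kept in growth cytokines, and no resting cells were measured.

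Cytotoxic granules are secretory lysosomes best known from natural killer (NK) cells and cytotoxic T cells. Granzymes are serine proteases stored in them in a complex with the proteoglycan serglycin, and perforin forms the pores through which granzymes enter a target cell. Granzymes are also made by cells that kill poorly or not at all, mast cells and activated innate lymphocytes among them, and can cleave proteins outside cells.

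The libraries held 25089415 to 32487004 estimated counts each. TNFa replicate 5 stood apart, scoring 90.4 on the first principal component against -22.6 to -14.5 for the remaining 5. Its Pearson correlation with them averaged 0.949, while theirs averaged 0.964 to 0.967. For the 5 granule genes, fold changes are therefore also given without it where they move. Values of other genes are mostly given with all 6 libraries only, and some of them depend on it. Whether a group's 3 libraries came from separate animals or cultures is not in the labels, so p-values here reflect library-to-library spread, which may be technical. Of the 9 genes used as ILC2 markers, all were tested, and their summed level was 7590 to 8190 CPM (counts scaled to the library total, with TMM correction) in the TNFa libraries and 7010 to 7900 CPM in the PBS libraries. Most of that sum was Il5, and single markers had fold changes in both directions, given with the other marker lists.

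The transcripts differed widely in abundance. Per kilobase of exon, which allows genes to be compared, Srgn was highest, at 451 ± 55.1 CPM per kb with TNFa and 425 ± 35.6 with PBS (mean ± SD, n = 3 each, as for all such values here). Gzmb came next with 60.9 ± 7.28 and 107 ± 8.56 CPM per kb in the TNFa and PBS libraries, and Gzma followed with 13.3 ± 5.89 and 50.1 ± 14.9. Nkg7 stood at 3.09 ± 0.658 CPM per kb with TNFa and 4.19 ± 0.253 with PBS, and Prf1 was last with 0.761 ± 0.515 and 0.768 ± 0.132. This order was the same in each of the 6 libraries, and no neighbours in it overlapped within either group. Perforin transcript was thus scarce in libraries with far more granzyme B transcript. For scale, Cst7, which encodes cystatin F, an inhibitor of granule cathepsins, was at 60.8 ± 13.1 and 69.9 ± 2.49 CPM per kb in the TNFa and PBS libraries.

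**Figure D1:**
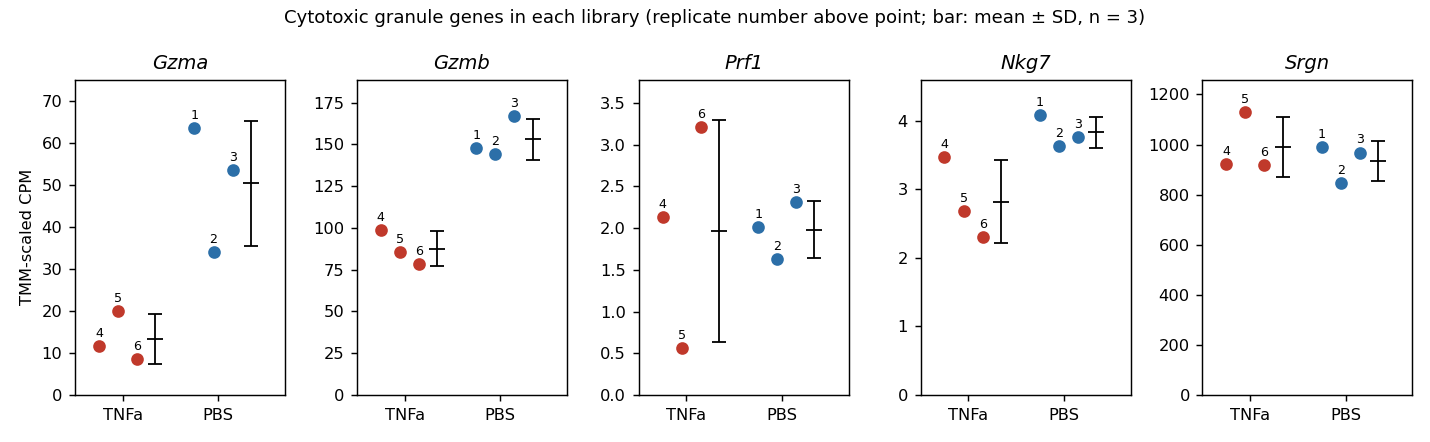
TMM-scaled CPM (y axis, starting at 0, its own scale for each gene) of the 5 granule genes in the 3 TNFa and 3 PBS libraries; each point is 1 library, numbered by replicate, and the bar beside it is the mean ± SD. Gzma, Gzmb and Nkg7 do not overlap between the groups, whereas Prf1 and Srgn do, and TNFa replicate 5 has the lowest Prf1 value, 0.561 CPM.

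Gzma encodes granzyme A, a tryptase of the granule. It lies on the minus strand of chromosome 13 (mm10, 113093825 to 113100981). The TNFa libraries held 11.6, 20 and 8.56 CPM of Gzma (replicates 4, 5 and 6), against 63.6, 34.1 and 53.6 CPM in the PBS libraries (replicates 1, 2 and 3). The groups did not overlap, and the nearest libraries were TNFa replicate 5 and PBS replicate 2. The means were 13.4 ± 5.93 CPM with TNFa and 50.4 ± 15 CPM with PBS, a log2 fold change of -1.92 ± 0.32 (SE of the edgeR fit; 95% interval -2.64 to -1.19). Without TNFa replicate 5 the log2 fold change was -2.33 ± 0.26. In RNA from a whole culture, fewer cells of a type and less RNA per cell cannot be told apart.

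Gzmb encodes granzyme B, the protease that cleaves after aspartate and can start caspase activation in a target cell. It lies on the minus strand of chromosome 14 (mm10, 56258838 to 56262260). Its level was 98.8, 85.4 and 78.2 CPM in TNFa replicates 4, 5 and 6, against 148, 144 and 167 CPM in PBS replicates 1, 2 and 3. Every TNFa library lay below every PBS library. The means were 87.5 ± 10.5 CPM with TNFa and 153 ± 12.3 CPM with PBS, a log2 fold change of -0.80 ± 0.12 (SE; 95% interval -1.08 to -0.53), and -0.79 ± 0.12 without TNFa replicate 5.

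The balance between both granzymes differed as well in TNFa replicates 4 and 6. There were 8.54, 4.27 and 9.13 Gzmb counts for each Gzma count in TNFa replicates 4, 5 and 6, against 2.32, 4.22 and 3.11 in PBS replicates 1, 2 and 3. TNFa replicates 4 and 6 stood clear of the PBS range, while TNFa replicate 5 and PBS replicate 2 had nearly the same ratio. Granzyme transcripts were also scaled per kilobase and summed over Gzma, Gzmb, Gzmc and Gzmm. Of this sum Gzmb made up 73.7% to 85.0% in TNFa libraries and 61.8% to 74.6% in PBS libraries, with overlapping ranges.

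The sequences before the start sites of both granzyme genes are shown because these 2 genes had the lowest fold changes of the 5, and so that both can be read side by side. The RefSeq start of Gzmb, at 56262334, lies upstream of the gene span in the deposited table, which begins at 56262260 on this strand. Gzmb positions below therefore hold for the RefSeq start only. For Gzma both starts are at 113100981. Each sequence runs 5′ to 3′ on the gene's own strand from 250 bases before the RefSeq start site to 30 bases from it, in build GRCm38.p6 (mm10). Capitals mark the RUNX core TGTGGT, the AP-1 site TGANTCA and the CRE core TGACG, each on either strand.

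Gzma (chr13:113100952-113101231, minus strand): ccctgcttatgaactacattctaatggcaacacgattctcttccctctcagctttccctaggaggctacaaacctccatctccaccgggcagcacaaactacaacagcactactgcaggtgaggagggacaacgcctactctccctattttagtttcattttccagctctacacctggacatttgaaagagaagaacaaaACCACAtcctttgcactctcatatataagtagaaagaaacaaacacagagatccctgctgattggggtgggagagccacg
Gzmb (chr14:56262305-56262584, minus strand): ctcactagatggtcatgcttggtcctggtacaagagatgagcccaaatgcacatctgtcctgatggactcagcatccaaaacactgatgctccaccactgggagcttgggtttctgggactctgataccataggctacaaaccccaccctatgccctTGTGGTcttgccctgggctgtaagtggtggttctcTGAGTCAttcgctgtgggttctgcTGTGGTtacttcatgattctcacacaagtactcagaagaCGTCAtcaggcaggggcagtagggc

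RUNX factors, AP-1 and factors of the CREB and ATF family were described at the mouse Gzmb promoter in studies of T cells. The Gzmb window held the RUNX core at positions -93 and -34, counted from the start site as 0, an AP-1 site at -58 and a CRE core at 5 on the other strand. In the Gzma window the RUNX core occurred once, at -50 on the other strand, and neither an AP-1 site nor a CRE core was found. Across 32544 promoter windows of 300 bases, 16.7% held the RUNX core, 7.79% the AP-1 site and 20.9% the CRE core on either strand. The RUNX core was also found in the windows of Prf1 (-130) and Nkg7 (-83) and at the downstream start of Srgn (-202). The CRE core was found in Prf1 (-92) and at the downstream start of Srgn (-72) as well as in Gzmb. The upstream start of Srgn held no motif. Further motifs searched on both strands were the T-box site GGTGTGA (3.95% of windows), the STAT site TTCNNNGAA (8.33%), the GATA site AGATAA (11.2%) and the NF-kB consensus (4.53%). Nkg7 held the T-box site at -13 and a STAT site at -220, and Gzmb a STAT site at 37. The GATA site and the NF-kB consensus were in none of the 6 windows of the 5 genes. None of the matches overlapped another.

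**Figure D2:**
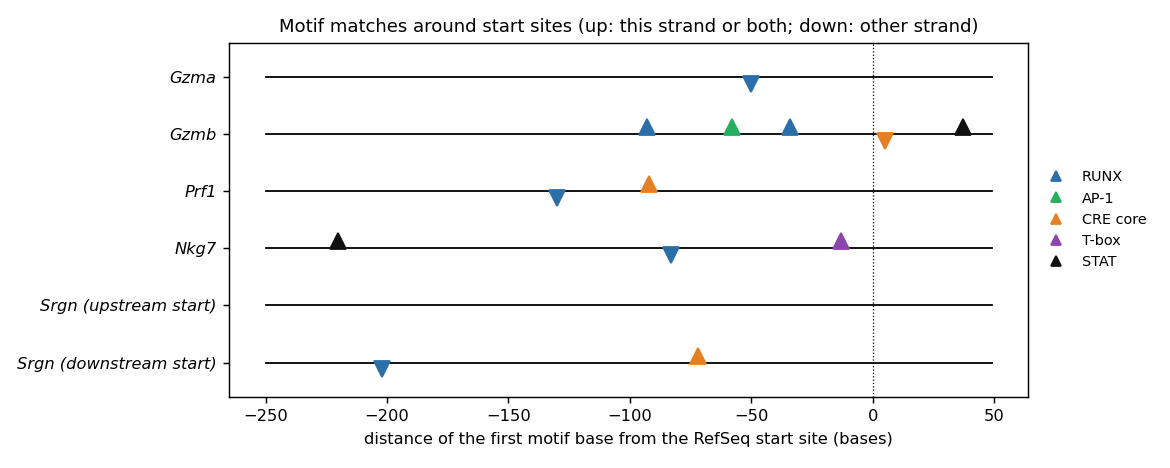
Positions of motif matches (x axis, bases from the RefSeq start site) in the 300-base windows of the 5 genes, 1 line per start site; colours give the motif, and triangles point up for the gene's strand or both strands and down for the other strand. Gzmb holds 5 matches, whereas Gzma holds 1 and the upstream start of Srgn holds 0.

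Prf1 encodes perforin, the pore-forming protein of the granule, and lies on the plus strand of chromosome 10 (mm10, 61297833 to 61304680). Its level was 2.13, 0.561 and 3.21 CPM in TNFa replicates 4, 5 and 6, against 2.01, 1.63 and 2.31 CPM in PBS replicates 1, 2 and 3. The PBS libraries lay inside the range of the TNFa libraries. These values rest on 54, 15 and 106 counts with TNFa and 59, 48 and 73 with PBS. The log2 fold change was -0.01 ± 0.58 (SE), with an interval from -1.30 to 1.28 that holds a 2-fold difference in either direction. The spread among the TNFa libraries was wider than among the PBS libraries. The log2 fold change was 0.43 ± 0.43 without TNFa replicate 5 and -0.56 without TNFa replicate 6, so single libraries set its sign.

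Nkg7 encodes a membrane protein of cytotoxic granules that takes part in their release, and lies on the plus strand of chromosome 7 (mm10, 43437073 to 43438249). TNFa replicates 4, 5 and 6 held 3.48, 2.69 and 2.30 CPM, against 4.09, 3.64 and 3.77 CPM in PBS replicates 1, 2 and 3. All TNFa values lay below all PBS values; the nearest were TNFa replicate 4 and PBS replicate 2. The counts behind them were 72 to 88 with TNFa and 107 to 120 with PBS. The log2 fold change was -0.44 ± 0.33 (SE; 95% interval -1.18 to 0.30).

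Srgn encodes serglycin, the proteoglycan whose glycosaminoglycan chains hold granzymes and, in mast cells, other proteases in the granule. It lies on the minus strand of chromosome 10 (mm10, 62493833 to 62527451), 1190 kb from Prf1. Its level was 922, 1130 and 919 CPM in TNFa replicates 4, 5 and 6, against 990, 845 and 968 CPM in PBS replicates 1, 2 and 3. The groups overlapped, with the highest value in TNFa replicate 5 and the lowest in PBS replicate 2. The log2 fold change was 0.08 ± 0.12 (SE), with an interval from -0.17 to 0.34, and -0.02 ± 0.09 without TNFa replicate 5. There were 9.33, 13.2 and 11.8 Srgn counts for each Gzmb count in TNFa replicates 4, 5 and 6, against 6.70, 5.88 and 5.80 in PBS replicates 1, 2 and 3. These ratios did not overlap.

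By the edgeR quasi-likelihood test with Benjamini-Hochberg adjustment over all 15719 genes, 0 of the 5 genes passed an adjusted p of 0.05, where 0.102% of all tested genes did. At an unadjusted p under 0.05 there were 2 of the 5, Gzma and Gzmb, against 8.31% of all genes. DESeq2 called the same pair, against 1.39% of all genes. So did edgeR without TNFa replicate 5, where the background was 0.406%, and with a filter at 5 CPM in at least 3 libraries Gzmb alone was called, against 0.250%. For 3 of the 5, Gzma, Gzmb and Nkg7, all TNFa libraries lay below all PBS libraries, and 8.35% of all genes did so. Nothing is read from these counts, since the same comparison chose the genes.

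**Figure D3:**
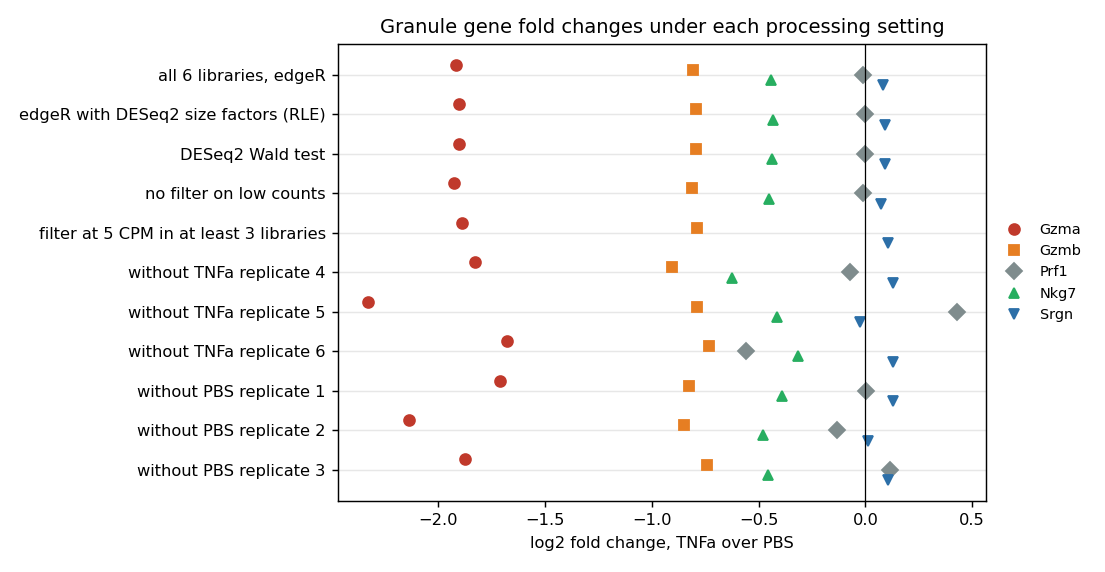
Log2 fold change of TNFa over PBS (x axis) of each granule gene under every processing setting (rows), 1 symbol per gene. Gzma stays between -2.33 and -1.68 and Gzmb between -0.90 and -0.73 in all rows, whereas Prf1 lies on both sides of 0; Prf1 and Nkg7 are not tested under the 5 CPM filter.

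The other genes of the granule pathway were taken as 7 lists of 89 genes, of which 80 were in the table and 77 were tested. By edgeR with adjustment over all genes 0 of the 77 passed, the smallest adjusted p being 0.188. At an unadjusted p under 0.05 there were 10 of 77 (13%, against 8.31% of all tested genes), 4 higher and 6 lower with TNFa. DESeq2 called 2, Gzmc and Zeb2, against 1.39% of all tested genes. Their median log2 fold change was -0.09, beside 0.005 for all tested genes, and 50 had a negative and 27 a positive value. Among all tested genes 7768 values were negative and 7951 positive. These lists and the marker lists were chosen with earlier results of these data known, so nothing is read from such counts.

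Of 8 other granzyme genes, 2 were tested. Gzmc, the neighbour of Gzmb, had 58, 32 and 29 counts in TNFa replicates 4, 5 and 6, against 6, 0 and 5 in PBS replicates 1, 2 and 3. Every TNFa library was above every PBS library, as for 6.85% of all tested genes. The level was low, at 1.46 ± 0.742 CPM with TNFa and 0.121 ± 0.107 CPM with PBS. The log2 fold change was 3.54 ± 0.92 (SE), which did not pass in edgeR (adjusted p = 0.296, and 0.173 to 0.788 with any single library left out) and passed in DESeq2 (adjusted p = 0.0192). Gzmc thus stood in the opposite direction to Gzmb, 24.2 kb away. Of its 845 transcript windows of 50 bases, 35 (4.14%) also occur in Gzmd, Gzme or Gzmg, and how many of its few counts came from them was not tested. By contrast, 0 windows of Gzma, Gzmb, Prf1, Nkg7 or Srgn occur in another gene's transcripts. Gzmm, granzyme M, had 0 to 9 counts with TNFa and 11 to 15 with PBS (log2 fold change -1.22 ± 0.97, adjusted p = 0.783).

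Gzmb lies at the end of a cluster of granule protease genes on chromosome 14 that includes the mast cell chymases and cathepsin G. Within 500 kb of Gzmb, 26 other genes were tested, of which 0 passed in edgeR and 4 had an unadjusted p under 0.05, where 8.31% of all tested genes did. These 4, named after their values were seen, were Ripk3, Ltb4r1, Gzmc and Cbln3. Ripk3, a kinase of necroptosis, was at 147 ± 10.3 CPM with TNFa and 230 ± 16.7 CPM with PBS, without overlap (log2 fold change -0.64 ± 0.11, adjusted p = 0.0879). Ltb4r1, a leukotriene B4 receptor, was at 411 ± 11.7 CPM with TNFa and 539 ± 46.5 CPM with PBS (-0.39 ± 0.10, adjusted p = 0.293), and Cbln3 was under 1 CPM in both groups (1.73 ± 0.69, adjusted p = 0.529). The 6 mast cell protease and cathepsin G genes among them, Cma1, Mcpt1, Mcpt2, Mcpt4, Mcpt8 and Ctsg, had log2 fold changes from -0.18 to 0.15, with 0 at an unadjusted p under 0.05 (adjusted p of at least 0.932). Cma1, the mast cell chymase, was the most abundant of them, at 226 ± 16.5 CPM with TNFa and 218 ± 28.5 CPM with PBS. Around Gzma, 7 other genes were tested within the same distance, with 0 past the threshold and 1, Esm1, at an unadjusted p under 0.05 (-1.23 ± 0.49, adjusted p = 0.529).

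**Figure D4:**
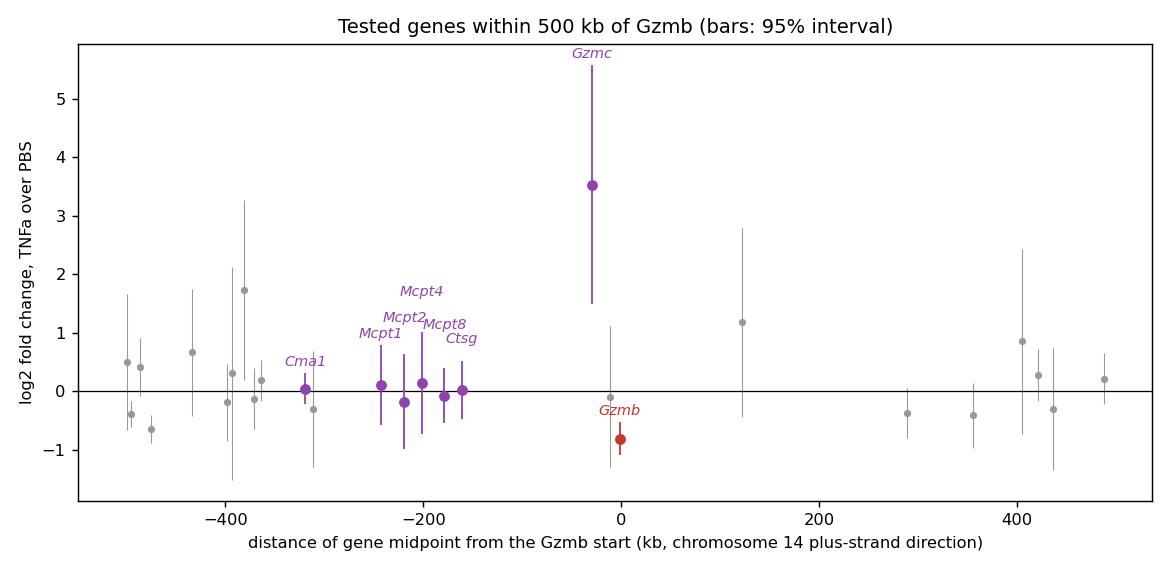
Log2 fold change of TNFa over PBS (y axis, bars 95% interval) of each tested gene within 500 kb of Gzmb, against the distance of its midpoint from the Gzmb start in kb (x axis). Gzmb lies at -0.80 and Gzmc at 3.54 with a wide interval, while the 6 mast cell protease and cathepsin G genes lie between -0.18 and 0.15.

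Granzymes are made as inactive precursors that Ctsc (cathepsin C) activates by removing an N-terminal dipeptide. In the list of 11 genes of activation and granule content 0 passed and 0 had an unadjusted p under 0.05, with a median log2 fold change of -0.13, 5 positive and 6 negative. Ctsc stood at 90.0 ± 23.0 CPM with TNFa and 104 ± 11.3 CPM with PBS (log2 fold change -0.20 ± 0.18). Cst7 stood at 59.9 ± 12.9 and 68.9 ± 2.48 CPM in the TNFa and PBS libraries. Calr, the chaperone calreticulin, which also binds perforin, was the most abundant of the list at 1360 ± 94.9 CPM with TNFa and 1200 ± 45.1 CPM with PBS (adjusted p = 0.678). For the lysosomal membrane genes the log2 fold change was -0.13 ± 0.12 in Lamp1 and 0.005 ± 0.13 in Lamp2 (edgeR adjusted p = 0.822 and 0.994). M6pr, a mannose 6-phosphate receptor that sorts granzymes to lysosomes, stood at 0.02 ± 0.10.

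Of 17 genes of granule transport and exocytosis 16 were in the table and tested. These 16 had counts in every library, and 0 passed in edgeR. At an unadjusted p under 0.05 there were 2, against 8.31% of all tested genes, both lower with TNFa. Their median log2 fold change was -0.06. Unc13d, the priming factor Munc13-4, was at 170 ± 26.9 CPM with TNFa and 200 ± 13.1 CPM with PBS (log2 fold change -0.23 ± 0.13, adjusted p = 0.699). Stxbp2, Munc18-2, was at 95.3 ± 13.8 and 117 ± 5.36 CPM in the TNFa and PBS libraries (-0.29 ± 0.13, adjusted p = 0.591). Vamp8, a SNARE protein of secretory granules, and Kif5b, a kinesin heavy chain, stood at 0.07 ± 0.14 and 0.02 ± 0.10. The other gene at an unadjusted p under 0.05 was Sytl2, a Rab27 effector named after its values were seen, at -0.62 ± 0.22 (adjusted p = 0.464).

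Genes that build the glycosaminoglycan chains of serglycin and other proteoglycans numbered 18, of which 16 were tested. None of the 16 passed in edgeR. At an unadjusted p under 0.05 there were 3, against 8.31% of all tested genes, all lower with TNFa. They were Xylt2, Chpf and Ndst2, named after their values were seen, at -0.65 ± 0.27, -0.41 ± 0.18 and -0.49 ± 0.19 (edgeR adjusted p = 0.544, 0.571 and 0.520). Xylt2 adds the first sugar of a chain, Chpf takes part in chondroitin polymerisation, and Ndst2 modifies the heparin chains of mast cells. The list had 14 negative and 2 positive log2 fold changes and a median of -0.16, where all tested genes had 7768 negative and 7951 positive. Most of its tested genes had their lowest value in TNFa replicate 5, so the negative fold changes rest in part on that library. Among them were Xylt2 (8.75 CPM), Chpf (40.1 CPM), Ndst2 (18.2 CPM) and Ndst1 (17.2 CPM), while Chst11 was highest there (12.9 CPM). The most abundant members of the list, Chsy1, Chpf2, Fam20b and Chst12, lay between -0.17 and -0.01.

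Inhibitors of granzymes gave 0 calls among 5 tested genes. Serpinb9, the intracellular inhibitor of granzyme B, had 27.7, 23.8 and 33.5 CPM in TNFa replicates 4, 5 and 6, against 17.4, 16.9 and 21.6 CPM in PBS replicates 1, 2 and 3. All TNFa values were above all PBS values, but the log2 fold change of 0.60 ± 0.19 did not pass in edgeR (adjusted p = 0.393) or DESeq2 (adjusted p = 0.0889). Serpinb6b, which inhibits granzyme A in mice, was at 4.79 ± 0.934 CPM with TNFa and 4.63 ± 2.21 CPM with PBS. Serpinb6a was at 94.3 ± 10.7 and 100 ± 8.96 CPM in the TNFa and PBS libraries. Serpinb9b ranged from 1.03 to 2.73 CPM with TNFa and from 0.034 to 3.32 CPM with PBS.

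In the list of 13 cytotoxic receptors and death ligands 0 passed in edgeR. Against 8.31% of all tested genes, 1 had an unadjusted p under 0.05. It was Tnfsf10, which encodes the death ligand TRAIL, at 43.2 ± 3.98 CPM with TNFa and 31.5 ± 1.65 CPM with PBS (log2 fold change 0.46 ± 0.14, adjusted p = 0.393). Across the list the median was -0.35 on the log2 scale, and 0.17 when only its genes above the 5 CPM filter were kept. Cd226, an activating receptor, and Hcst, the adaptor DAP10, stood at 0.15 ± 0.14 and -0.06 ± 0.21. Tyrobp, the adaptor DAP12, was at 3.20 ± 0.791 CPM with TNFa and 4.76 ± 0.998 CPM with PBS (adjusted p = 0.720). Fasl had 0 to 29 counts with TNFa and 9 to 18 with PBS.

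Among 16 transcription factors of cytotoxic lineages 14 were tested and 0 passed in edgeR, with a median log2 fold change of -0.19. Id2, needed for all innate lymphoid cells, was the most abundant, at 1680 ± 131 CPM with TNFa and 1680 ± 111 CPM with PBS. Bhlhe40, Stat5b and Nfil3 stood at 0.08 ± 0.13, -0.25 ± 0.18 and -0.11 ± 0.14 (adjusted p = 0.900, 0.761 and 0.878). Zeb2, a repressor that acts late in cytotoxic maturation, is named after its values were seen: it was at 26.3 ± 3.56 CPM with TNFa and 14.9 ± 0.909 CPM with PBS, without overlap, and passed in DESeq2 (adjusted p = 0.00153) but not in edgeR (adjusted p = 0.188, and 0.141 to 0.787 with any single library left out). Klf2, a factor of lymphocyte quiescence and trafficking likewise named after its values were seen, stood at -0.61 ± 0.24 (adjusted p = 0.513). Tbx21 encodes T-bet, which drives granzyme and perforin genes in NK and T cells. It had 3, 3 and 31 counts in TNFa replicates 4, 5 and 6, against 50, 53 and 25 in PBS replicates 1, 2 and 3. The groups overlapped (log2 fold change -1.835 ± 0.84, edgeR adjusted p = 0.615). Eomes, a relative of Tbx21, had 0 to 9 counts with TNFa and 3 to 28 with PBS. Runx3, a RUNX factor, was at 53.3 ± 16.8 CPM with TNFa and 54.4 ± 5.06 CPM with PBS (edgeR adjusted p = 0.978).

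**Figure D5:**
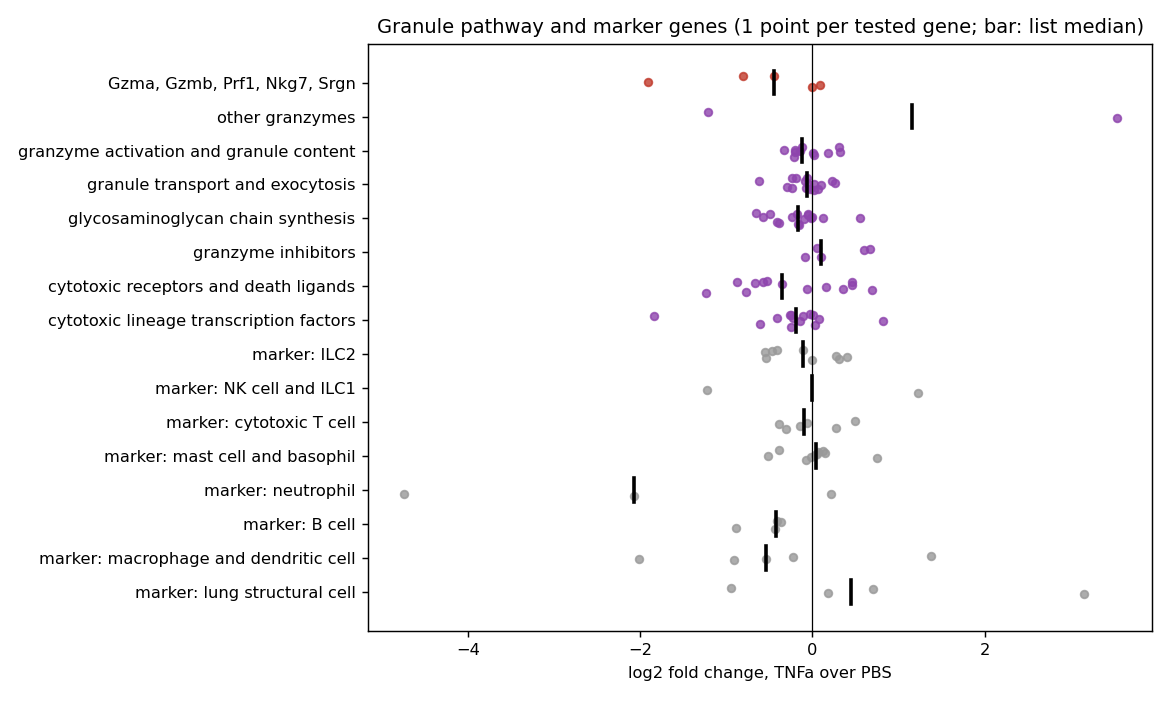
Log2 fold change of TNFa over PBS (x axis) of every tested gene of the granule pathway lists and the cell type marker lists (rows), 1 point per gene, with a bar at each list's median. Gzma and Gzmb lie at -1.92 and -0.80, and the medians of granule content and exocytosis genes are -0.13 and -0.06. Nothing is read from this contrast, since both granzymes were chosen with these results known. Lists with few tested genes, such as other granzymes, have medians set by 1 or 2 genes.

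Markers of other cells that carry granzymes were measured beside these values. Of 8 NK cell and ILC1 markers 6 were in the table and 2 were tested, and their summed level was 5.38 to 7.11 CPM with TNFa and 7.16 to 11 CPM with PBS. Klrb1c, the NK1.1 gene, had 3, 0 and 1 counts in TNFa replicates 4, 5 and 6, against 0, 0 and 21 in PBS replicates 1, 2 and 3. Itga2 was at 2.92 ± 0.0658 CPM with TNFa and 6.84 ± 1.95 CPM with PBS (edgeR adjusted p = 0.296, DESeq2 adjusted p = 0.0257), and Ncr1 at 2.98 ± 0.776 and 1.27 ± 0.475 CPM in the TNFa and PBS libraries (edgeR adjusted p = 0.483). All 6 cytotoxic T cell markers were tested with 0 at an unadjusted p under 0.05, summing to 70.3 to 79.6 CPM with TNFa and 79.6 to 84.6 CPM with PBS. Most of that was Cd3g, at 41.2 ± 7.99 and 43.1 ± 3.26 CPM in the TNFa and PBS libraries, and Cd3e, while Cd8a was at 0.790 ± 0.210 and 0.655 ± 0.312 CPM.

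Genes typical of mast cells, which make serglycin and in mice granzyme B, were abundant in every library. Their 10 markers, basophil genes included, summed to 1380 to 1570 CPM with TNFa and 1340 to 1470 CPM with PBS, a median of 0.04 on the log2 scale and 0 genes at an unadjusted p under 0.05. Tpsab1, a mast cell tryptase, was at 763 ± 53.5 CPM with TNFa and 703 ± 66.0 CPM with PBS (adjusted p = 0.813). Single mast cell markers ranged from -0.51 to 0.76 on the log2 scale. The NK cell and ILC1 sum lay lower with TNFa, but its 2 tested genes went opposite ways. Itga2 was lower (log2 fold change -1.226) and Ncr1 higher (1.225). The untested markers averaged lower with TNFa, near the floor and with overlap between the groups. They were Klri2 (0.0583 and 0.476 CPM in the TNFa and PBS libraries), Eomes (0.119 and 0.415), Klrb1c (0.0496 and 0.222) and Klre1 (0.106 and 0.212). The part of these cells in the granzyme values was not tested. In the remaining marker lists, counts at an unadjusted p under 0.05 stand against 8.31% of all tested genes. Neutrophil genes summed to at most 3.10 CPM with TNFa and 24.2 CPM with PBS, the upper value being set by Mpo in PBS replicate 1 (20.1 CPM). Of 3 tested genes 2, Mpo and S100a9, were lower with TNFa at an unadjusted p under 0.05. S100a9 was at 0.187 ± 0.199 and 0.787 ± 0.367 CPM in the TNFa and PBS libraries, without overlap, and S100a8 at 1.24 ± 0.419 and 1.06 ± 0.0766 CPM. B cell genes, mainly Cd79b and Ms4a1, reached 16.5 and 20.6 CPM in the TNFa and PBS libraries, with all 4 fold changes negative and 1, Cd79b, at an unadjusted p under 0.05. Macrophage and dendritic cell genes, led by Lyz2 and Cd68, reached 27.2 and 39.9 CPM, with 2 of 5, Lyz2 and Adgre1, lower at an unadjusted p under 0.05. The lung structural list reached 198 CPM with TNFa and 153 CPM with PBS, mostly from Pecam1. In this list Scgb1a1 was at 42.4 ± 40.5 and 4.73 ± 4.19 CPM in the TNFa and PBS libraries. Epcam, an epithelial adhesion molecule, lay lower with TNFa, at 14.2 ± 1.06 CPM with TNFa and 27.4 ± 1.59 CPM with PBS without overlap (log2 fold change -0.95 ± 0.16, edgeR adjusted p = 0.0879).

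The ILC2 markers themselves had fold changes in both directions. By edgeR 0 of the 9 passed, while 7 had an unadjusted p under 0.05, against 8.31% of all tested genes: Areg, Il5 and Il13 were higher with TNFa, and Gata3, Il1rl1, Klrg1 and Arg1 were lower. Of the 9, 5 lay lower in all TNFa libraries, against 8.35% of all tested genes, and 2 higher, against 6.85%. The median log2 fold change was -0.12. Il5 was at 5440 ± 308 CPM with TNFa and 4520 ± 448 CPM with PBS (edgeR adjusted p = 0.508). Gata3, the factor that defines ILC2s, was at 705 ± 52.1 CPM with TNFa and 978 ± 71.8 CPM with PBS (edgeR adjusted p = 0.199, DESeq2 adjusted p = 0.00904). Il1rl1, the IL-33 receptor, was at 425 ± 49.8 CPM with TNFa and 616 ± 64.9 CPM with PBS (log2 fold change -0.54 ± 0.12, edgeR adjusted p = 0.221). Arg1, arginase 1, was at 426 ± 32.2 CPM with TNFa and 625 ± 23.5 CPM with PBS (-0.55 ± 0.10, edgeR adjusted p = 0.101). Klrg1, an inhibitory receptor of mature ILC2s, was at 166 ± 19.8 CPM with TNFa and 220 ± 24.8 CPM with PBS (-0.41 ± 0.13, edgeR adjusted p = 0.393). The part of these markers in the granzyme values was not tested.

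The genes whose levels ran most closely with each granule gene over the 6 libraries were taken from 8433 protein coding genes with a mean of at least 10 CPM, by Pearson's r of log2 CPM. For Gzma they were Dnase1l1, Nfkb1 and Dnajc9 (r = 0.99 each), and for Gzmb they were Dgka, Cd200r1 and Map4 (r = 0.99 each). Nfkb1, the precursor of the NF-kB subunit p50, was at 242 CPM with TNFa and 370 CPM with PBS, and Dgka, a diacylglycerol kinase, at 69.6 and 110 CPM in the TNFa and PBS libraries. For Prf1 they were Haus6, Tdg and Clk4, for Nkg7 Mocs2, Tab1 and Zfp384, and for Srgn Smc2, Ptbp3 and Commd6 (r of at least 0.976 throughout). Between the granule genes themselves r was 0.91 for Gzma with Gzmb, 0.89 for Gzmb with Nkg7 and 0.80 for Gzma with Nkg7. It was -0.10 for Gzma with Prf1 and -0.28 for Gzmb with Srgn. The 6 libraries fall into 2 groups, so the high values for Gzma, Gzmb and Nkg7 mostly restate the difference between the groups. Prf1, Srgn and their partners hardly differed between the groups (partner log2 fold changes from -0.066 to 0.115). For these 2 genes TNFa replicate 5 was the extreme library, lowest in Prf1 (0.561 CPM) and highest in Srgn (1130 CPM). With so many genes some come close to any pattern of 6 values.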

How the data were processed

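RNA from sorted lung ILC2s was sequenced in 3 TNFa and 3 PBS libraries from 10 ng of RNA each, per the labels' protocols. The authors deposited estimated counts per gene, which the table's name attributes to Partek's E/M method, unscaled between libraries and 41.7% whole within 0.01. Reads shared by several genes are split by such a method. PBS replicate 2 is labelled a repeat. CASAVA 1.8.2, STAR and mm10 are listed in the submitters' processing notes; the annotation release and strand setting were not given in the sources used here. Of other per-sample columns there were 0.

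Estimated counts were rounded. Genes passed filterByExpr (minimum count 10, total 15) and were scaled by TMM and tested with edgeR 4.0.16 (robust quasi-likelihood, Benjamini-Hochberg over 15719 genes, threshold 0.05) in R 4.3.3, checked on simulated data. The SE came from the fold change and its F statistic. DESeq2 1.42.0, DESeq2 size factors, other filters and leaving out each library were alternatives. Exon lengths and shared 50-base windows came from GENCODE M21, whose positions equal the file's for the 5 genes, and promoter windows (250 bases before to 50 after a start) from RefSeq, GRCm38.p6, for all 5 genes. The RUNX and NF-kB motif letters were narrowed after first matches were seen. Members and lists were chosen with earlier results of these data known. The text names the 5 genes, 3 genes of highest r with each, every called gene and the 4 most abundant of each pathway list. It also names the 2 most abundant of each marker list, and others where marked. Ctsc, Cst7, Ndst1, Chst11, Runx3, Tbx21, Eomes, Fasl, Klrb1c and Cd8a were also chosen after values were seen. So were the genes near Gzma and Gzmb and the marker genes beyond those 2.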

Additional observations from a re-analysis of the deposited data

How the results depend on the processing

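The 5 granule genes kept their fold changes within the spread between libraries under every alternative that tested them; Prf1 and Srgn, near 0, took either sign. The number of these genes called by edgeR was 0, where 0.102% of all tested genes were called. It was 2 by DESeq2 (1.39% of all) and 1 with the filter at 5 CPM (0.250%). With a library left out it was 0 to 2, the 2 being without TNFa replicate 5 (0.406%). As the same comparison chose the genes, nothing is read from these numbers. For all genes 16 calls became 218 by DESeq2, 3 without a filter and 25 with the filter at 5 CPM, and 1 to 67 with a library left out. Pathway calls went from 0 to 2 by DESeq2. The cause was not tested, though leaving out a library also leaves fewer samples. Scaling by DESeq2 size factors changed no call among the results listed. Of the smaller results, 4 gained a call by DESeq2 (Gzmc, Zeb2, Gata3, Itga2), and list medians moved by more than their spread in 22 combinations of a list and a setting. Prf1 rests on 15 to 106 counts with TNFa and 48 to 73 with PBS, so its TNFa libraries differ by more than its PBS libraries, and Gzmc had 0 to 6 counts with PBS. No paired analysis was possible because the groups share no replicate numbers.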
